A study of Drosophila melanogaster with 6 samples.

Results

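Brain and whole leg were compared at 72 h after puparium formation (APF) in Drosophila melanogaster pupae of the wildtype strain w1118 grown at 27 °C. The 4 libraries whose labels name brain or leg, 2 per tissue, were taken from the 6 libraries of the study, because both tissues went to the same library provider. The other 2 libraries came from indirect flight muscle and were not used here. Brain was dissected as a non-muscle tissue. The whole leg is labelled as a source of tubular muscle, and it also holds epidermis, tendon cells, sensory neurons, glia, trachea and blood cells, so a difference between the tissues is a difference between mixtures of cells. Reads came from polyA RNA, and the replicates were described as biological duplicates; the p-values measure the spread between these 2 libraries per tissue. In such bulk samples, fewer cells of a type and less RNA per cell cannot be told apart.

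At this pupal stage the adult nervous system and the adult leg are close to their final form. Neurons build synapses and express ion channels, transmitter enzymes and neuropeptides, and the compound eye develops beside the optic lobes. In the leg, tubular muscles assemble sarcomeres and attach to tendons while the epidermis secretes and tans the adult cuticle. Neurons and muscles also share many genes, and alternative promoters, exons and 3′ ends let the same gene give a different transcript in each tissue.

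3 readouts were taken from the same libraries. Gene expression was the sum of exon bin counts per gene, scaled to CPM, that is counts relative to the library's total after TMM normalisation. Exon use was the count of one bin relative to the rest of its gene. Unannotated splicing events were those that fortuna found with no counterpart in the annotation. The brain libraries held 71759682 and 67081961 exon counts and the leg libraries 75148692 and 79546571. Across 11115 genes the log2 CPM values of the replicates correlated with r = 0.992 in brain and 0.989 in leg, against 0.813 to 0.819 between tissues, as a description across genes. In leg, 27.0% and 28.1% of all counts fell on 10 genes, against 6.46% and 6.33% in brain. The authors' mean normalised count per gene, from whole-gene counting of the same libraries, ranked 10581 genes alike (Spearman's rho 0.973 against the mean of the exon sums, across genes), and the exon sums were a median of 2.53 times as large. Scaling by TMM (the trimmed mean of M values) differed from scaling to total counts, which moved the median log2 difference over all genes from 0.03 to 0.84; every direction given here is relative to the TMM median.

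In gene expression, 3035 genes were higher in brain (27.3% of 11115 tested) and 2884 higher in leg (25.9%) at an adjusted p of 0.05. With total counts the split was 5811 and 1557. At least 2-fold differences were called for 2189 genes in brain and 2105 in leg, and at least 8-fold differences for 953 and 565. The 10 largest differences towards brain, among genes with a mean of at least 100 CPM in brain, held genes of the eye, of neurons and of the optic lobe. Crys, which encodes a lens protein, had 1094 and 1374 CPM in brain and 6.46 and 8.3 CPM in leg (log2 fold change 7.38 ± 0.28, SE; adjusted p = 1.63e-06). Pdh, a retinol dehydrogenase of the retina, had 145 and 259 CPM in brain and 0.499 and 1.54 CPM in leg (7.63 ± 0.54). The photoreceptor arrestins followed, with 114 and 219 against 0.602 and 1.66 CPM for Arr1 and 207 and 347 against 2.48 and 3.79 CPM for Arr2. These 4 genes were chosen by the size of their difference, so the gap between their brain and leg libraries adds no support.

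Neuronal genes among the same 10 were KaiR1D, a glutamate receptor subunit, with 302 and 274 CPM in brain and 2.85 and 2.56 CPM in leg (6.73 ± 0.22), and sNPF, the short neuropeptide F precursor, with 214 and 194 CPM in brain and 2.39 and 1.84 CPM in leg (6.59 ± 0.23). The homeobox gene scro, which acts in the developing brain and optic lobe, had 115 and 91.6 CPM in brain and 1.15 and 0.803 CPM in leg (6.72 ± 0.26), and se (sepia), an enzyme of red eye pigment synthesis, had 201 and 369 CPM in brain and 2.61 and 3.23 CPM in leg (6.61 ± 0.36). The others were CG7509 and CG13071, with log2 fold changes of 7.19 and 7.07. Brain and leg libraries did not overlap for any of the 10, as follows from choosing called genes by size of difference.

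The 10 largest differences towards leg were led by metallothioneins, small proteins that bind metal ions, and by contractile genes. MtnD had 2.42 and 1.47 CPM in brain and 314 and 371 CPM in leg (-7.46 ± 0.32), MtnE 0.983 and 0.34 CPM in brain and 92.8 and 129 CPM in leg (-7.38 ± 0.45), and MtnB 22.4 and 10.5 CPM in brain and 1113 and 1319.7 CPM in leg (-6.21 ± 0.41). The other 2 metallothionein genes measured moved less, with -0.99 for MtnA (a call lost with total counts) and -0.77 for MtnC, which did not pass the test (adjusted p = 0.149). Act79B, the actin of tubular muscle, rose from 233 and 214 CPM in brain to 28812 and 34921 CPM in leg (-7.16 ± 0.24), and Scp1, a sarcoplasmic calcium-binding protein, from 299 and 155 to 27715 and 29991 CPM (-6.99 ± 0.38). The tubulin alphaTub85E, known from developing muscle and its attachment cells, had 5.3 and 5.57 CPM in brain and 331 and 376 CPM in leg (-6.02 ± 0.21). The uncharacterised genes CG9452, CG14961, CG33098 and CG17777 completed the group, with log2 fold changes from -6.99 to -5.99.

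**Figure D1:**
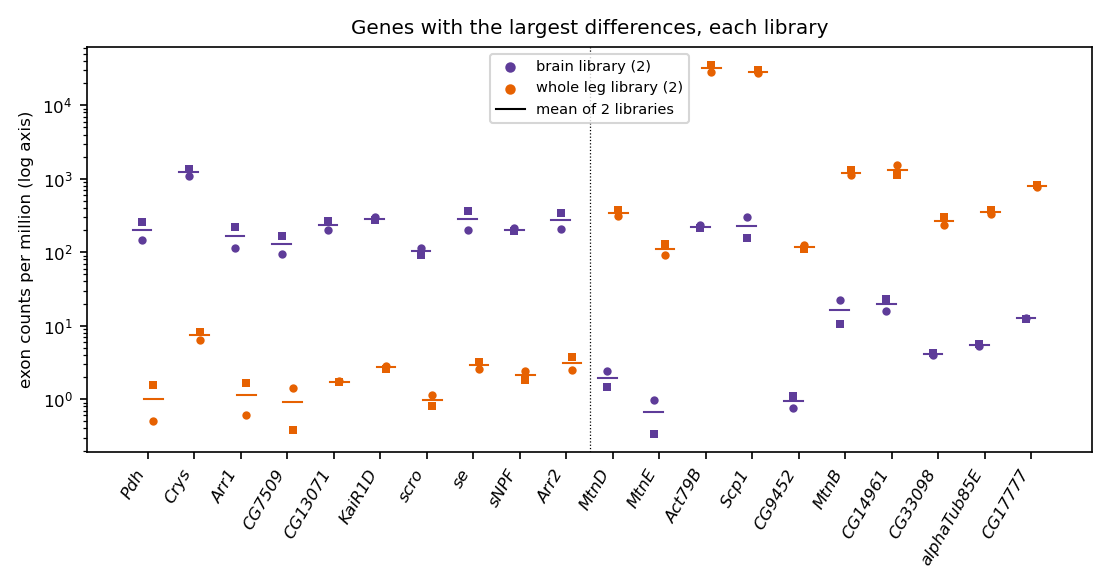
Expression of the 20 genes with the largest differences in each of the 4 libraries, in exon CPM on a log axis. Circles and squares are the 2 libraries of a tissue and bars their mean. The genes were chosen for a large difference, so the 2 tissues are separate for each. Examples are Crys at 1094 and 1374 CPM in brain and 6.46 and 8.3 in leg, and Act79B at 233 and 214 and 28812 and 34921.

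The labels were checked against marker genes. All 8 pan-neuronal markers tested were higher in brain, with a median log2 difference of 3.77 and summed levels of 12838 and 9642 CPM in brain and 993 and 669 CPM in leg. Of these, nSyb, the neuronal synaptobrevin, had 1689 and 1436 CPM in brain and 119.7 and 113 CPM in leg, and brp (Bruchpilot), the active zone scaffold, 1564 and 1019.9 CPM in brain and 107 and 63.7 CPM in leg. Leg libraries thus held neuronal transcripts at a lower level, and none of the 8 markers was at 0 there. Of 11 glial markers, 9 were higher in brain and 1 in leg, with a median of 1.74. The GABA transporter Gat had 2705 and 2496 CPM in brain and 73.9 and 117 CPM in leg (4.76 ± 0.28), and the glial regulator repo differed by 1.63.

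Retinal transcripts were part of the brain libraries. All 19 photoreceptor markers tested were higher in brain, with a median log2 difference of 5.8, the highest of the lists examined. The rhodopsin gene ninaE had 833 and 1246 CPM in brain and 10.8 and 14.3 CPM in leg (6.37 ± 0.31), the light-gated channel gene trp 788 and 999.7 CPM in brain and 11.3 and 15.2 CPM in leg, and ninaC, a myosin kinase of photoreceptors, 819 and 962 CPM in brain and 9.09 and 14 CPM in leg. Brain library b of the exon table, given second here, was the higher one for each of these 3 genes. The summed list reached 5031 and 6043 CPM in brain against 215 and 185 CPM in leg.

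Muscle and cuticle transcripts were present in the brain libraries as well. The sarcomere list summed to 34130.4 and 30509.7 CPM in brain and 299185 and 316042 CPM in leg, and no member was at 0 in brain. The Cpr cuticular proteins summed to 8071 and 8309.6 CPM in brain and 58245 and 62369 CPM in leg. The 16 blood cell and fat body markers summed to 747 and 591 CPM in brain and 903 and 1139 CPM in leg, with 1 higher in brain and 8 in leg (median -0.73, or 0.08 with total counts), and 1 of them was at 0 in a brain library. Of 10 tracheal markers listed, 7 were tested, and all 7 were higher in leg, with a median of -2.02. These were uif, sinu, kni, knrl, Gasp, pio and vvl, without btl, trh and dys. Gasp and pio also belong to the chitin and apical matrix list, and vvl to the head and brain list. The part of these cell types in the differences between the tissues was not tested.

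**Figure D2:**
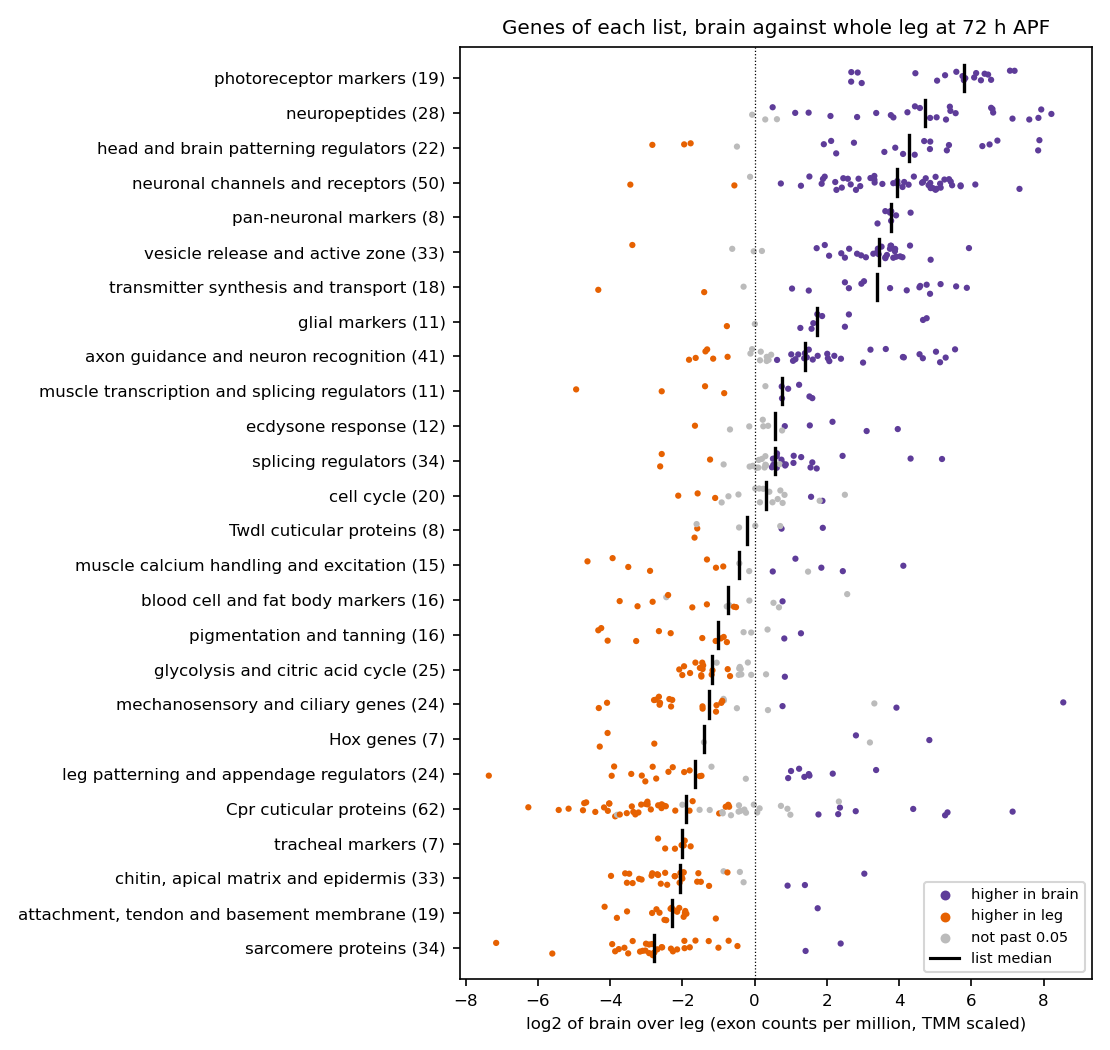
Log2 difference of brain over leg for the genes of each list, with the number of genes tested in brackets. Points are genes, coloured by call, and black bars are list medians, which run from -2.8 for sarcomere proteins to 5.8 for photoreceptor markers, beside 0.03 over all genes tested.

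The machinery of synaptic release was higher in brain. The list of vesicle release and active zone genes had 33 members tested, of which 29 were higher in brain and 1 in leg, with a median log2 difference of 3.43 beside 0.03 over all genes. Complexin (cpx), which clamps the fusion machinery, had 3458 and 2600.4 CPM in brain and 278 and 167 CPM in leg (3.76 ± 0.30), and Syt1, the calcium sensor of release, 2298 and 1646 CPM in brain and 176 and 111 CPM in leg (3.78 ± 0.30). The synapse-associated Sap47 and the endocytic dynamin gene shi differed by 3.66 ± 0.27 and 2.95 ± 0.20. The exception, singled out after its value was seen, was Nlg1, a neuroligin known at the larval neuromuscular junction, with 7.59 and 4.54 CPM in brain and 61.6 and 65.2 CPM in leg (-3.38 ± 0.26). Another neuroligin, Nlg2, differed in the opposite direction, with 277 and 227 CPM in brain and 3.21 and 5.0 CPM in leg (5.94 ± 0.28). The values of dlg1, Nsf2 and Liprin-alpha were -0.62, -0.02 and 0.20, none past the threshold; dlg1 was called with DESeq2 (-0.64), and Nsf2 (0.79) and Liprin-alpha (1.01) were called towards brain with total counts.

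Channels and receptors followed the same direction for 47 of 50 genes, with a median of 3.96 and 2 genes higher in leg. Among the most counted members, the chloride cotransporter gene kcc had 4873 and 4088 CPM in brain and 190.1 and 231 CPM in leg (4.41 ± 0.23) and nrv3, a neuronal sodium pump subunit, 3463 and 2635 CPM in brain and 356 and 169 CPM in leg (3.54 ± 0.37). Atpalpha, the catalytic pump subunit used by many cell types, had 8897 and 7055 CPM in brain and 2344 and 1949 CPM in leg (1.89 ± 0.21). The calcium-activated potassium channel gene slo, which serves neurons and muscle, differed least of the 4, with 1356 and 909.8 CPM in brain and 503 and 428 CPM in leg (1.28 ± 0.24). Among members singled out after their values were seen, the histamine receptor ort, used by neurons after the photoreceptors, had 55 and 53.3 CPM in brain and 0.206 and 0.461 CPM in leg (7.33 ± 0.31), and the inward rectifier Irk2 was higher in leg, with 2.04 and 4.45 CPM in brain and 34.6 and 35.9 CPM in leg (-3.44 ± 0.34). The 7 nicotinic receptor alpha subunits of the list that were tested, with nAChRbeta1 and nAChRbeta2, were all higher in brain, from 2.58 for nAChRalpha3 to 6.11 for nAChRalpha6.

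Transmitter genes were higher in brain for 15 of 18 genes (median 3.39), while 2 were higher in leg and 1 was not called. The vesicular transporters of glutamate (VGlut) and GABA (VGAT) differed by 5.88 ± 0.23 and 5.15 ± 0.26, and Gad1, which makes GABA, by 4.86 ± 0.41. The glial glutamate transporter Eaat1 and glutamine synthetase Gs2 differed by 2.61 ± 0.19 and 2.5 ± 0.21. The dopamine synthesis genes ple and Ddc, which also serve cuticle tanning, were not among those higher in brain. Of the 2 genes higher in leg, only ple is named here. Tyrosine hydroxylase (ple), the first enzyme of both, had 137 and 121 CPM in brain and 2813 and 2377 CPM in leg (-4.33 ± 0.22). Dopa decarboxylase (Ddc) had 260.3 and 224 CPM in brain and 303 and 295 CPM in leg. It did not pass the test (adjusted p = 0.181) except with total counts, where it was higher in brain (0.50). The vesicular monoamine transporter Vmat was higher in brain, with 474 and 325 CPM in brain and 191 and 199 CPM in leg (1.04 ± 0.22).

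Neuropeptide precursors were higher in brain for 25 of 28 genes, with a median of 4.72, and none was higher in leg. Nplp1 had 245 and 235 CPM in brain and 7.56 and 12.5 CPM in leg (4.58 ± 0.28) and Dh31, a diuretic hormone and neuropeptide, 154 and 131 CPM in brain and 1.6 and 7.05 CPM in leg (5.04 ± 0.59). ITP, the ion transport peptide gene, was close in both tissues, with 93.2 and 87.7 CPM in brain and 72.4 and 55.5 CPM in leg (0.50 ± 0.18; adjusted p = 0.0455). Its first exon bin, by contrast, was used almost entirely in brain.

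Axon guidance and recognition genes were less uniform. Of 41 genes, 27 were higher in brain and 6 in leg (median 1.39). N-cadherin (CadN) had 841 and 531 CPM in brain and 90.5 and 57.9 CPM in leg (3.21 ± 0.31), Dscam1, an immunoglobulin protein with very many splice forms, 787 and 528 CPM in brain and 149.5 and 135 CPM in leg (2.21 ± 0.24), and tutl (turtle) 1181 and 831 CPM in brain and 153 and 98.3 CPM in leg (3.0 ± 0.29). Neuroglian (Nrg), which epithelia also use, was higher in leg, with 445 and 362 CPM in brain and 956 and 832 CPM in leg (-1.15 ± 0.20), a call lost with total counts. The other 5 members higher in leg were rst, Sema1b, Fas3, hbs and Ptp10D, of which Ptp10D went from -0.75 to 0.05 with total counts. 3 families chosen after values were seen moved together: the 21 dpr genes tested, the 8 DIP genes, whose immunoglobulin proteins bind dpr proteins, and the 13 beat genes were all higher in brain, with medians of 4.05, 4.6 and 4.66.

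Regulators that pattern the head and the appendages separated the tissues. Of 22 head and brain regulators, 18 were higher in brain and 3 in leg (median 4.27). The eye selector gene toy had 159 and 125 CPM in brain and 2.3 and 1.28 CPM in leg (6.31 ± 0.32) and pros (prospero), a regulator of neural and glial fate, 599 and 322 CPM in brain and 34.9 and 26.9 CPM in leg (3.9 ± 0.33). Of 24 leg and appendage regulators, 14 were higher in leg and 8 in brain. The most counted, hth, had 170.3 and 117 CPM in brain and 66.7 and 33.3 CPM in leg (1.52 ± 0.33), and dac, which patterns the middle of the leg and also acts in the brain, had 60.1 and 51.7 CPM in brain and 70.7 and 61.5 CPM in leg (adjusted p = 0.253, and called towards brain with total counts, 0.56). Among members singled out after their values were seen, al (aristaless), which patterns the leg tip, had 0.054 and 0 CPM in brain and 4.5 and 4.95 CPM in leg, Dll (Distal-less), the selector of distal appendages, differed by -1.8 ± 0.17, and Sp1 by -3.96 ± 0.31.

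Hox genes, which give segments their identity, differed in both directions: of 7 tested, 3 were higher in leg and 2 in brain. Scr had 7.71 and 6.6 CPM in brain and 49.1 and 49 CPM in leg (-2.78 ± 0.17), Antp 1.95 and 0.756 CPM in brain and 28.5 and 17.1 CPM in leg (-4.07 ± 0.46) and Ubx 0.464 and 0.373 CPM in brain and 10.04 and 6.37 CPM in leg (-4.29 ± 0.38). Those 3 act in the thoracic segments that bear the legs, and all 3 were higher in leg. The head genes Dfd and pb had 3.55 and 2.42 CPM in brain and 0.086 and 0.12 CPM in leg (4.84 ± 0.63) and 2.1 and 2.13 CPM in brain and 0.447 and 0.154 CPM in leg (2.81 ± 0.70). The lab gene had 0.216 and 0.438 CPM in brain and 0.0344 and 0.0342 CPM in leg (adjusted p = 0.0501, and past the threshold with total counts), and abd-A, at 0.0648 and 0.153 CPM in brain and 0.138 and 0.444 CPM in leg, did not pass the test (adjusted p = 0.33).

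Contractile genes were higher in leg with few exceptions. Of 34 sarcomere genes, 32 were higher in leg and 2 in brain, with a median of -2.8; with total counts these were 27 and 2. Muscle myosin heavy chain (Mhc) had 6913 and 4839 CPM in brain and 69818 and 73122 CPM in leg (-3.6 ± 0.23), the myosin light chain Mlc2 2862 and 3173 CPM in brain and 33605 and 34687 CPM in leg (-3.5 ± 0.18), and troponin T, encoded by up, 3723 and 3797 CPM in brain and 25473 and 27649 CPM in leg (-2.82 ± 0.18). Brain levels of these 3 genes were well above 0. The 2 sarcomere genes higher in brain, named after their values were seen, both encode troponin C: TpnC73F had 556 and 649 CPM in brain and 217 and 236 CPM in leg (1.41 ± 0.19) and TpnC47D 104 and 148 CPM in brain and 20.7 and 27.7 CPM in leg (2.38 ± 0.24). Another troponin C gene, TpnC41C, differed by -5.6 ± 0.22 towards leg, from 85.6 and 94.7 to 4178 and 4574 CPM.

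Calcium handling genes of muscle were split. Of 15, 7 were higher in leg and 5 in brain with a median of -0.42, which turned to 4, 6 and 0.39 with total counts. The calcium pump SERCA had 1621 and 1285 CPM in brain and 33299 and 38508 CPM in leg (-4.63 ± 0.22), the calcium release channel RyR 349 and 198 CPM in brain and 4116 and 4240.1 CPM in leg (-3.93 ± 0.30) and the junctophilin gene jp 194 and 144 CPM in brain and 1962 and 1859 CPM in leg (-3.5 ± 0.22). Arginine kinase (Argk), which buffers ATP in muscle and neurons, had 963 and 1168 CPM in brain and 1341 and 1515 CPM in leg (adjusted p = 0.0974, and past the threshold with DESeq2). Of the 11 muscle regulators, how, an RNA-binding protein of tendon and muscle, differed by -2.57 ± 0.26, while Rbfox1, exd and mbl had values of 1.6, 0.93 and 0.30, the last one with an adjusted p of 0.526 and called towards brain with total counts (1.09).

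Genes of attachment sites and of the cuticle were higher in leg. Of 19 attachment, tendon and basement membrane genes, 18 were higher in leg and 1 in brain (median -2.29). The spectraplakin shot, which braces tendon cells, had 813 and 518 CPM in brain and 3238 and 2986 CPM in leg (-2.23 ± 0.25), the collagen IV genes Col4a1 and vkg differed by -2.09 ± 0.18 and -1.93 ± 0.18, and talin (rhea) by -1.89 ± 0.20. Of 33 chitin, apical matrix and epidermal genes, 27 were higher in leg and 3 in brain. The chitin deacetylases Cda5 and verm had 271 and 180.2 CPM in brain and 2228 and 1912 CPM in leg and 176 and 172 CPM in brain and 985 and 950.0 CPM in leg, and the chitin-binding Gasp and the chitinase Cht7 differed by -2.21 ± 0.18 and -2.67 ± 0.19.

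Cuticular protein genes of the Cpr family were mixed. Of 62 tested, 35 were higher in leg, 8 higher in brain and 19 not called. Cpr64Aa had 1251 and 1237 CPM in brain and 18921 and 21476 CPM in leg (-4.02 ± 0.19) and Cpr62Bc 482 and 452 CPM in brain and 8498 and 8299 CPM in leg (-4.17 ± 0.19), whereas Cpr49Ae had 2630.2 and 2719 CPM in brain and 2955 and 3352 CPM in leg (adjusted p = 0.294, and called towards brain with total counts, 0.58). Of those higher in brain, singled out after their values were seen, Cpr72Ec had 379.7 and 480.0 CPM in brain and 17.9 and 23 CPM in leg (4.39 ± 0.24) and Cpr49Ag 91.3 and 139 CPM in brain and 3.27 and 2.68 CPM in leg (5.27 ± 0.27). Of the 62 Cpr genes, 12.9% were higher in brain and 56.5% in leg, beside 27.3% and 25.9% over all genes tested. Of 8 Twdl genes, 2 were higher in leg and 2 in brain under both scalings.

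Pigmentation and tanning genes were higher in leg for 11 of 16 and higher in brain for 2; with total counts these were 6 and 5. The laccase gene stw (straw), which hardens cuticle, had 88.1 and 71 CPM in brain and 797 and 747 CPM in leg (-3.28 ± 0.21) and yellow-c 144 and 149 CPM in brain and 882 and 959 CPM in leg (-2.65 ± 0.19). Pu, which makes the cofactor of tyrosine hydroxylase and precursors of eye pigment, was higher in brain, with 446 and 655 CPM in brain and 319.6 and 303 CPM in leg (0.82 ± 0.22). Mechanosensory and ciliary genes were higher in leg for 16 of 24 and in brain for 3, and with total counts for 10 and 5. The cap protein gene nompA, made by support cells of bristles and chordotonal organs, had 17.3 and 9.99 CPM in brain and 278 and 266 CPM in leg (-4.31 ± 0.29), and the mechanosensitive channel Piezo 191 and 138 CPM in brain and 313 and 299 CPM in leg (-0.89 ± 0.21), a call that was lost with total counts.

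In energy metabolism the number of genes called depended on the scaling. The list of glycolysis and the citric acid cycle also held the ATP synthase subunits ATPsynbeta and blw. Of its 25 genes tested, 15 were higher in leg and 1 in brain (median -1.17), against 11 and 4 with total counts (median -0.35). The ATP synthase subunits ATPsynbeta and blw had 1765 and 1912 CPM in brain and 4529.7 and 5511 CPM in leg and 1185 and 1121 CPM in brain and 3316 and 3865 CPM in leg, and the mitochondrial aconitase mAcon1 581 and 554 CPM in brain and 2042 and 2353 CPM in leg (-1.95 ± 0.19). Of 30 complex I subunits, a family chosen after values were seen, 28 were higher in leg with TMM and 2 with total counts.

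Of 34 splicing regulators, 19 were higher in brain and 3 in leg with a median of 0.57, against 30 and 2 with total counts. The RNA-binding protein genes sm and ps differed by 0.30 and 0.28, neither past the threshold with TMM and both called towards brain with total counts (1.09 and 1.07), and Rbp9 by -1.23 ± 0.22 towards leg, a call lost with total counts. Of 12 ecdysone response genes, 5 were higher in brain and 1 in leg (median 0.57), against 10 and 1 with total counts (median 1.38). The ecdysone receptor gene EcR had 207 and 142 CPM in brain and 112 and 83.4 CPM in leg (0.84 ± 0.24), and Eip74EF, an early response gene, 184 and 138 CPM in brain and 531 and 482 CPM in leg (-1.65 ± 0.21).

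Exon use was tested for 52157 bins in 7437 genes with at least 100 counts in each library. The share of a gene's counts on a bin was higher in brain for 1792 bins (3.44% of bins tested) and higher in leg for 1330 (2.55%). The 3122 bins lay in 1281 genes, of which 409 held bins of both kinds and 377 had no called difference in gene expression. Leaving out either brain library lowered the number of bins called. Both tissues express these genes, so the counts describe which part of a gene was used rather than its level.

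Bins of UTRs were called more often than coding bins. A bin that overlapped any coding sequence counted as coding, so UTR bins are those without coding bases. Of the 7428 bins tested at the 3′ end of a gene, 2074 fell in the 3′ UTR class. UTR stretches that share a bin with coding sequence are thus not in these UTR counts, and what this rule adds to the difference was not tested. Of 2945 bins annotated as 3′ UTR, 309 (10.5%) had a higher share in brain and 71 (2.41%) in leg. Of 7715 bins in 5′ UTRs, 502 (6.51%) and 380 (4.93%) were called, and of 40710 coding bins 959 (2.36%) and 862 (2.12%). Calls in 3′ UTRs were thus 81.3% towards brain, against 52.7% in coding bins. Leaving out 3′ UTR bins that another gene's exon overlaps gave 232 towards brain and 43 towards leg of 2347. Over the 3′-most bins of 7428 genes the median log2 change was -0.01, and over the 5′-most bins of 7415 genes 0.02, so both medians over all genes were near 0.

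**Figure D3:**
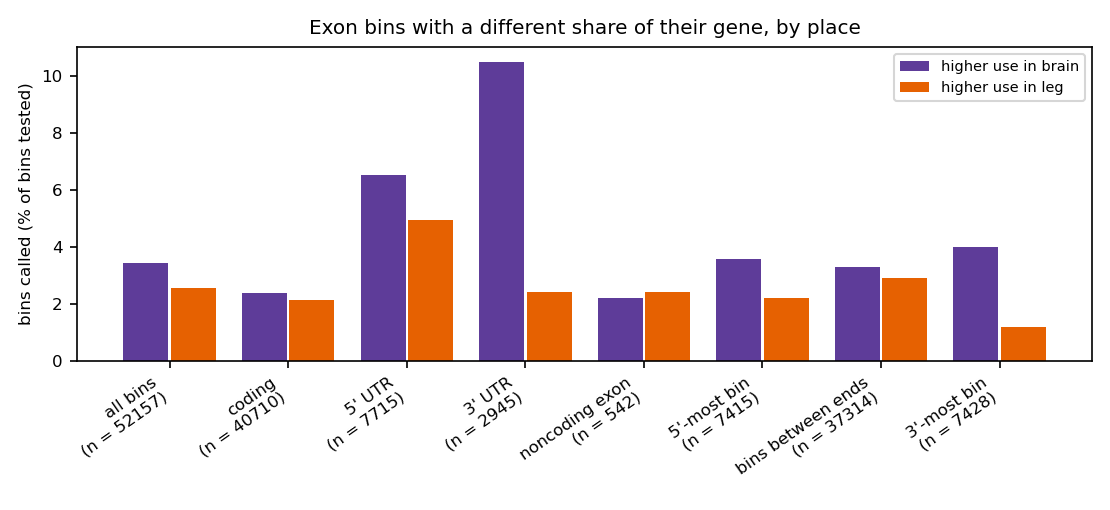
Percent of exon bins with a higher share of their gene in brain or in leg, by annotation and by place in the gene, with the number of bins tested. Bars start at 0; 3′ UTR bins stand out, with 10.5% towards brain and 2.41% towards leg.

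Genes with more of their counts on the 3′-most bin in brain included regulators that both tissues express. The examples here, other than sm, Rbp9 and Nrg, were chosen after their values were seen. In sm (smooth), an RNA-binding protein gene, the share of the gene's exon counts on the 3′-most bin was 33% and 33% in brain against 1.76% and 0.993% in leg (log2 change of exon use 4.5 ± 0.48, SE), while the level of the gene was 653 and 374 CPM in brain and 501 and 334 CPM in leg. In Mef2, the muscle differentiation factor, the 3′-most bin held 23.5% and 24.7% in brain against 1.03% and 1.42% in leg (4.29 ± 0.25). In Rbp9, a relative of ELAV, it held 31.4% and 29% in brain against 2.58% and 1.25% in leg (3.99 ± 0.34), although the gene was higher in leg (-1.23); this bin lies opposite an exon of Ts on the other strand. In all 3 genes the 2 libraries of a tissue lay closer together than to the other tissue. That follows from naming bins by a small p or after their values were seen, so it adds no support.

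The 3′-most bins of 3 ecdysone response genes also had a larger share in brain; over the 12 genes of that list, 7 bins (4.79%) were called towards brain and 6 (4.11%) towards leg. The 3′-most bin of the ecdysone receptor gene EcR held 30.3% and 29.2% in brain against 3.36% and 2.81% in leg (3.25 ± 0.34), that of Eip74EF at 3L:17558672-17560157 9.84% and 8.84% in brain against 0.586% and 0.414% in leg (4.22 ± 0.29), and that of Eip75B 13.9% and 15.5% in brain against 2.61% and 2.18% in leg (2.59 ± 0.30). Gene expression differed by 0.84 for EcR, -1.65 for Eip74EF and -0.15 for Eip75B, the last not past the threshold with TMM and called towards brain with total counts (0.65). In Nrg, whose last coding exons differ between neurons and epithelia, the 3′-most bin at X:8553333-8555170 held 8.84% and 7.25% in brain against 0.798% and 0.513% in leg (3.6 ± 0.26), while Nrg as a gene was higher in leg. In Dscam1 the 3′-most bin held 9.79% and 9.31% in brain against 2.91% and 2.1% in leg (1.92 ± 0.34).

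Contractile genes used other exons in brain than in leg. Of 548 bins in 34 sarcomere genes, 66 (12%) had a higher share in brain and 47 (8.58%) in leg, in 19 genes, beside 3.44% and 2.55% over all bins. The clearest bin was the ninth of Mhc, a coding bin of 144 bases at 2L:16769147-16769290. It held 7722 and 6112 counts in brain against 446 and 402 in leg, although Mhc as a gene was far higher in leg. As shares of Mhc these were 1.21% and 1.38% in brain against 0.011% and 0.00939% in leg (6.98 ± 0.41). Mhc is known for sets of mutually exclusive exons, and 12 of its 37 bins were called, 7 towards brain and 5 towards leg.

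Some bins of equal length in Mhc, paired here after their values were seen, differed in opposite directions. Among the coding bins of 104 bases, the one at 2L:16771343-16771446 held 2.18% and 2.52% in brain against 0.191% and 0.176% in leg and the one at 2L:16773277-16773380 1.04% and 0.741% in brain against 2.82% and 2.74% in leg. Among those of 118 bases, the bin at 2L:16778390-16778507 held 0.421% and 0.368% in brain against 1.74% and 1.78% in leg and that at 2L:16779728-16779845 1.0% and 1.01% in brain against 0.0624% and 0.0581% in leg. A pair of 79 bases held 0.498% and 0.313% in brain against 1.79% and 1.78% in leg for the first and 2.87% and 3.22% in brain against 0.876% and 0.837% in leg for the second. The opposite directions within these pairs follow from the choice of bins. Other bins of the same lengths did not pair in this way. Of 104 bases, the bin at 2L:16771942-16772045 was called towards brain (0.107% and 0.116% against 0.00815% and 0.00556% in leg). The one at 2L:16772437-16772540 was not called. Of 118 bases, the bin at 2L:16779093-16779210 was called towards brain (0.699% and 0.874% against 0.217% and 0.197% in leg).

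**Figure D4:**
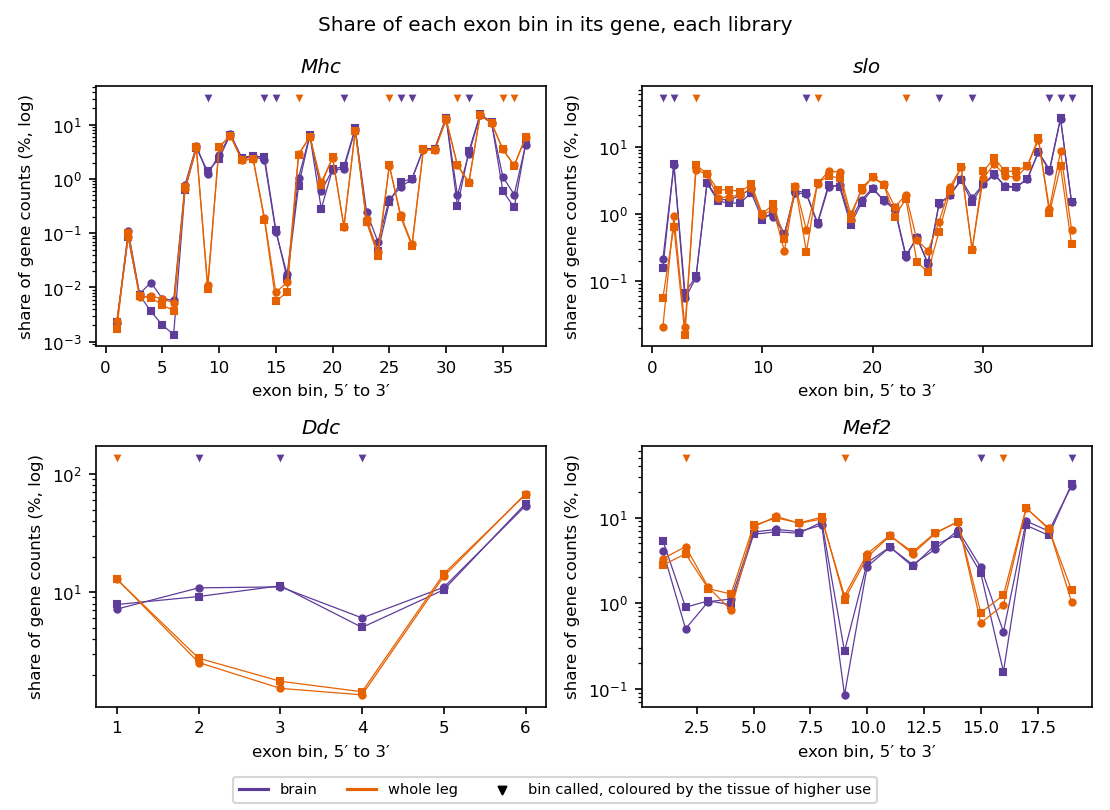
Share of a gene's exon counts on each bin, in percent on a log axis, with bins in order from 5′ to 3′, for Mhc, slo, Ddc and Mef2. Circles and squares are the 2 libraries of a tissue and triangles mark called bins in the colour of the tissue with the higher share; libraries of a tissue run together and part at single bins, such as the ninth of Mhc and the last of Mef2.

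Other contractile genes also had called bins. In up (troponin T) a coding bin of 3 bases at X:13599458-13599460 held 3.12% and 3.1% in brain against 0.138% and 0.153% in leg (4.42 ± 0.28); a bin this short counts the reads that span it. In wupA (troponin I), a coding bin of 101 bases at X:18112562-18112662 held 9.34% and 11.2% in brain against 2.12% and 1.93% in leg, and one of the same length at X:18109470-18109570 held 2.01% and 1.05% in brain against 6.94% and 7.0% in leg. In Tm1 (tropomyosin), the second bin from the 3′ end, coding and at 3R:15308031-15308236, held 0.369% and 0.255% in brain against 0.0238% and 0.0204% in leg (3.79 ± 0.31). In Tm2 the coding bin at 3R:15313591-15314020 moved the other way, with 2.32% and 1.12% in brain against 12.2% and 11.5% in leg (-2.81 ± 0.21). The coding bin at 3L:8737021-8738087 in Prm, the paramyosin gene that also encodes miniparamyosin, held 0.894% and 0.63% in brain against 8.69% and 9.03% in leg (-3.53 ± 0.23). The wupA, Tm2 and Prm bins were chosen after their values were seen.

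Muscle calcium genes had called bins in 10 of 13 genes, as did 1281 of all 7437 genes. Of their 241 bins, 40 (16.6%) were called towards brain and 12 (4.98%) towards leg, beside 3.44% and 2.55% over all bins. In SERCA, a coding bin near the 3′ end held 3.52% and 3.73% in brain against 0.173% and 0.151% in leg (4.49 ± 0.21), and another coding bin close by held 3.29% and 2.87% in brain against 6.51% and 6.31% in leg. In Ca-alpha1D, which encodes the calcium channel of muscle excitation and of neurons, a coding bin near the 5′ end at 2L:16170259-16171048 held 4.77% and 4.6% in brain against 0.136% and 0.121% in leg (5.19 ± 0.35), and the 5′ UTR bin at 2L:16166218-16166451 0.183% and 0.173% in brain against 1.83% and 1.87% in leg. In the sodium-calcium exchanger gene Calx, the 3′-most bin at 3R:21015115-21015613 held 6.08% and 5.91% in brain against 0.237% and 0.161% in leg, and a 5′ UTR bin at 3R:20989366-20989599 0.128% and 0.193% in brain against 1.9% and 2.2% in leg. Both genes thus differed at their starts, and Calx also at its 3′ end. These bins were chosen after their values were seen.

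Among channels, 14 of 46 genes had a called bin, as did 1281 of all 7437 genes. The list had 33 of 890 bins (3.71%) towards brain and 23 (2.58%) towards leg, beside 3.44% and 2.55% over all bins, so its shares were near those of all bins. In slo, which has separate neuronal and muscle promoters, the coding bin of 764 bases at 3R:24668146-24668909 near the 5′ end held 0.112% and 0.117% in brain against 4.51% and 5.39% in leg (-5.43 ± 0.40). A pair of inner coding bins of slo, at 3R:24698198-24698269 and 3R:24703891-24703956, held 0.23% and 0.241% in brain against 1.91% and 1.67% in leg for the first and 1.74% and 1.49% in brain against 0.297% and 0.288% in leg for the second. In Ca-beta, a calcium channel subunit gene not called in expression with TMM (-0.12) and called towards brain with total counts (0.67), the fifth bin from the 5′ end held 0.256% and 0.414% in brain against 6.09% and 5.72% in leg (-4.2 ± 0.36). In kcc, higher in brain as a gene, a coding bin near the 5′ end held 0.471% and 0.44% in brain against 3.23% and 3.13% in leg (-2.8 ± 0.20). The genes para, Sh and cac had no called bin.

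In release and active zone genes, 15 of 31 had a called bin, with 19 of 601 bins (3.16%) towards brain and 24 (3.99%) towards leg, beside 3.44% and 2.55% over all bins. In the scaffold gene dlg1 the coding bin at X:11382936-11383112 held 1.71% and 2.1% in brain against 0.024% and 0.0805% in leg (5.28 ± 0.39), while the gene level was 520.5 and 379 CPM in brain and 789 and 594 CPM in leg. The priming factor gene unc-13 had a 5′ UTR bin at 4:906028-906997 with 0.274% and 0.37% in brain against 4.4% and 6.58% in leg (-4.06 ± 0.49), opposite an antisense noncoding gene. In shi the bin at X:15896707-15896763 held 0.0113% and 0.00399% in brain against 0.32% and 0.584% in leg, with 21 and 6 counts in brain against 46 and 77 in leg. In Syn, a coding bin that lies opposite an exon of Timp held 3.13% and 3.43% in brain against 18.1% and 23% in leg, and reads of Timp cannot be told apart from those of Syn unless the counting used strand, which is not given in the sources used here. No bin of brp was called.

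The dopamine synthesis genes ple and Ddc, which serve neurons and cuticle, and the monoamine transporter gene Vmat differed in exon use between the tissues. In ple, the 3′-most bin at 3L:6713356-6714037 held 2.72% and 2.17% in brain against 0.0306% and 0.0331% in leg (6.27 ± 0.31), with 346 and 240 counts in brain against 50 and 46 in leg. In Ddc, a coding bin of 156 bases near the 5′ end at 2L:19119319-19119474 held 11.1% and 11.3% in brain against 1.53% and 1.76% in leg (2.77 ± 0.17), and the 5′-most bin 7.18% and 7.85% in brain against 12.9% and 12.8% in leg. In Vmat, the 3′-most bin held 57.2% and 56.8% in brain against 3.63% and 3.92% in leg (3.92 ± 0.30), and a 5′ UTR bin 0.194% and 0.149% in brain against 10.1% and 10.4% in leg (-5.87 ± 0.34). Ddc, whose level did not pass the test with TMM, had 4 of its 6 bins called, though the call of the 5′-most bin was lost whenever any 1 library was left out. The Vmat 5′ UTR bin was named by size of change and the other bins after their values were seen.

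Of recognition genes, 15 of 40 had a called bin, with 34 of 733 bins (4.64%) towards brain and 20 (2.73%) towards leg, beside 3.44% and 2.55% over all bins. In the receptor phosphatase gene Ptp10D, a coding bin of 18 bases at X:11672030-11672047 had 178 and 88 counts in brain against 0 and 0 in leg, a share at least 45.8-fold higher in brain against a floor of 3 counts per leg library. In Sema2a, a secreted semaphorin gene, a coding bin held 0.585% and 0.595% in brain against 7.1% and 6.54% in leg (-3.53 ± 0.27). Splicing regulators had called bins in 14 of 33 genes, with 27 of 433 bins (6.24%) towards brain and 21 (4.85%) towards leg. In Srrm234, a relative of the vertebrate microexon regulators, the second bin from the 5′ end held 0.87% and 1.13% in brain against 6.91% and 6.65% in leg (-2.78 ± 0.30). In Rbfox1 a coding bin near the 5′ end at 3L:10506070-10506563 held 3.24% and 2.69% in brain against 0.125% and 0.13% in leg (4.55 ± 0.59), and in bru1, a muscle splicing regulator, a 5′ UTR bin at 2L:12288905-12289344 held 0.817% and 0.154% in brain against 6.37% and 9.22% in leg; these last 2 were chosen after their values were seen.

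Of the 10 largest changes towards brain, 1 bin per gene, most had no count in leg. ITP was the exception with the highest count: its 5′-most bin had 1009 and 876 counts in brain against 1 and 3 in leg, a share of 11.7% and 11% in brain against 0.0237% and 0.0923% in leg (7.66 ± 0.41), in a gene whose level differed by 0.50. The 5′-most bin of fru (fruitless), which has separate promoters for sex-specific and common forms, had 369 and 337 counts in brain against 3 and 4 in leg (7.14 ± 0.79). At 0 in both leg libraries were bins of CG30015, RhoGEF3, Mob2, Tet, Rfx and CG43707 besides Ptp10D, with shares at least 67.9-fold higher for CG30015, 26.4-fold for RhoGEF3, 20.6-fold for Mob2, 14.4-fold for Tet, 12.5-fold for Rfx and 4.89-fold for CG43707. The f-cup bin, with 409 and 551 counts in brain against 0 and 2 in leg, lies opposite an exon of ninaB, which makes the visual chromophore.

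The 10 largest changes towards leg began with a 5′ UTR bin of chn (charlatan), a regulator of sensory organ and neuron development, with 6 and 4 counts in brain against 108 and 90 in leg (-7.0 ± 0.66). A 3′ UTR bin of Rab3-GEF of 18 bases had 24 and 30 counts in brain against 105 and 115 in leg and lies opposite an exon of Cyp4s3. The 5′-most bin of Gs2 had 35 and 72 counts in brain against 220 and 258 in leg, with shares of 0.0263% and 0.0435% in brain against 1.41% and 1.44% in leg (-5.3 ± 0.41), in a gene that was higher in brain. Bins of CG31140, Alk, CG43707, shakB and CG6330, with Vmat and slo as above, completed the group; the shakB call was lost without either brain library (-4.56 and -4.90). CG43707 thus held one bin at 0 in leg and another of larger share there.

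Unannotated events were counted by fortuna, which pseudoaligns reads to transcript fragments built from annotated and refined splice sites. It reported events by type: exon skipping (ES), alternative acceptor (AA), alternative donor (AD), a pair of both (AP), an unannotated intron inside an annotated exon (IE), intron retention (IR) and a remainder (XX). The brain libraries held 794567 and 608528 event reads and the leg libraries 569194 and 554656, both read ends added. An event had at least 1 read for 74618 events in brain and 56217 in leg, with 38128 in both; at least 150 reads were found for 1590 and 1004, with 365 in both. Exon skipping made up 83.6% and 83.7% of events with a read in the brain libraries and 84.4% and 83.8% in the leg libraries.

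Types differed little between tissues. Intron retention took 0.575% and 0.600% of event reads in brain and 0.873% and 0.910% in leg, and introns inside exons 2.34% and 2.52% against 2.97% and 3.23%. Paired acceptor and donor changes took 1.31% and 1.40% in brain against 1.1% and 0.961% in leg. The libraries of the tissues did not overlap in these 3 shares, and the exact permutation p was 0.333 for each, two-sided, the smallest that 2 against 2 libraries can give. Shares of reads for AA and AD events overlapped between the tissues.

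Of 8710 events with at least 50 reads, 2546 were higher in brain (29.2%) and 1974 in leg (22.7%), in 843 and 628 genes. The most read event of both tissues was an exon skipping event in up at X:13594050-13595150, with 3225 and 3267 reads in brain against 15034 and 16198 in leg (log2 fold change -2.97 ± 0.21). Relative to gene expression its change was -0.16 ± 0.18 (adjusted p = 0.71). The next most read in brain was an event of RpS3A, a ribosomal protein gene, with 2619 and 2785 reads in brain against 4011 and 4724 in leg at 4:66738-67048. The same reads were listed under 2 types for this position, as they were for 580 of the 8710 events, at 270 positions.

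The other events among the most read of a tissue had reads in both tissues. In brain these were an event of kcc, with 1498 and 2471 reads against 138 and 176 in leg, and one of Eaat1 at 2L:9338521-9339620, with 2004 and 1930 against 190 and 188. In leg they were an event of CG9297 at 3R:13774837-13775382, with 5415 and 5827 reads against 632 and 341 in brain, one of Mf (myofilin), a thick filament protein gene, at 3R:15172830-15176364, with 5199 and 5315 against 458 and 511, and one of Scp1 with 4575 and 5106 against 168 and 54. None of these 5 passed the test relative to gene expression with all 4 libraries and TMM; without the second brain library the events of kcc (-1.77), CG9297 (0.91) and Scp1 (1.53) did. By number of called events, kcc led in brain with 45 of 49 tested and Mhc in leg with 93 of 103. Over all events tested, 29.2% were higher in brain and 22.7% in leg.

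Relative to gene expression, 186 of 7876 events were higher in brain (2.36%) and 150 in leg (1.9%), in 220 genes. On simulated data this test recovered 0 of 50 changes of 2-fold and 18 of 50 of 4-fold, so moderate changes were rarely called in that setting. The spread between simulated replicates was set in advance and not estimated from these libraries. How often moderate changes were missed in the real data is therefore not known. Of 4123 events called by their reads alone and tested here, 271 were also called relative to their gene, 266 with the same sign. By gene, Mhc had 6 such events higher in brain and 3 in leg, Ca-alpha1D 6 and 1, and nrm, a neuronal and muscle adhesion gene, 5 and 3. The events tested per gene are not given here, so these counts yield no share to set beside 2.36% and 1.9%. Leaving out 1 library gave between 239 and 517 calls, the latter without the second leg library. The main fit did not pair brain and leg libraries of the same number. Their deviations correlated by 0.03, which cannot decide whether they were prepared together.

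**Figure D5:**
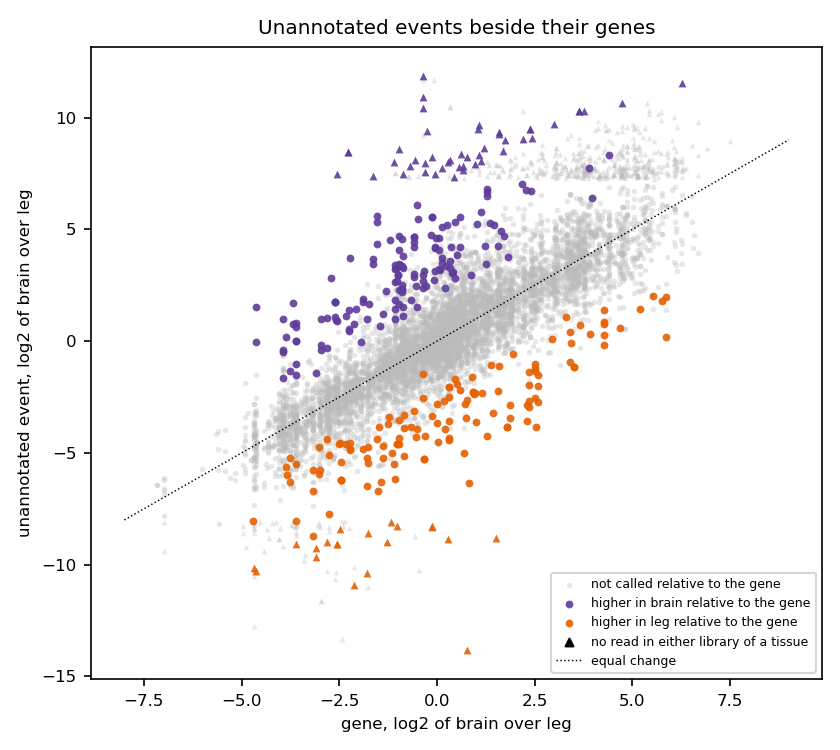
Log2 difference of brain over leg for 7876 unannotated events, against that of their gene, with the line of equal change. Coloured points are the 186 events higher in brain and the 150 higher in leg relative to their gene, and triangles are events with no read in either library of a tissue, whose fitted values are no estimate of size.

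The largest calls relative to the gene had no read in the other tissue. PMCA, the plasma membrane calcium pump, was expressed in both (2182 and 1624 CPM in brain and 2521 and 2343 CPM in leg), and its AP event at 4:330339-342922 had 573 and 578 reads in brain but 0 and 0 in leg, at least 152-fold higher in brain against a floor of 3 reads per library. Its ES event at 4:329428-342922 had 465 and 164 reads in brain and was unread in leg. An event of ninaC had 491 and 427 reads in brain and one of unc80, a channel subunit gene, 341 and 170, both with none in leg, in genes whose level in leg was 9.09 and 14 and 25.3 and 31.6 CPM.

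Towards leg, an IR record of CG43367 at 3L:4212916-4212920 had 0 and 0 reads in brain but 1394 and 1364 in leg, at least 1067-fold higher. The gene had 143 and 137 CPM in brain and 79.1 and 84.5 CPM in leg. This record spans only 5 bases, and whether its reads come from a retained intron was not tested. Events of Cralbp (138 and 227 reads), tmod, the tropomodulin gene (154 and 100), SERCA (138 and 96) and CG9297 (112 and 102) were read in leg and not in brain. In the test of event reads alone, an AD event of Ogdh at 3L:16957527-16959099 was read 696 and 754 times in leg and never in brain, at least 562-fold higher in leg.

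Some large calls rested on 1 replicate. Of 4520 called events, 48 had no read in 1 replicate of the higher tissue. An AA event of Gdh had 2030 and 0 reads in leg, another of CG9297 1352 and 0, and one of zormin 0 and 575, each with none in brain. A record at 4:329428-330271, listed for PMCA and for Rnf11, was read 1099 times in the first brain library and in no other library. In these events the replicates of the higher tissue did not agree, and none of the 336 calls relative to gene expression was of this kind.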

How the data were processed

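Poly(A) RNA of dissected brain and whole leg, 2 libraries each, was sequenced as stranded, paired reads. Per the labels' processing notes the submitters used STAR 2.7.3a, SAMtools 1.1, featureCounts of Subread 2.0.0 and DESeq2 1.32.0 with the BDGP6 build. The authors deposited raw counts per exon bin for DEXSeq, and read counts per unannotated event from fortuna, which treats each read end alone; both ends were added here. The authors' mean normalised count (the deposited baseMean, a signal from DESeq2) was set beside the exon sums only. Deposited columns with the authors' fold changes and p-values were not used. Whether bins were counted by strand, and the DEXSeq version, are not given in the sources used here.

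Of 59585 bins in 11195 genes, 57 records were rejoined over line breaks and 13 listed under 2 gene names were kept once. Bins were summed per gene; a read spanning several bins counts in each, so CPM refer to exon counts. Exon library totals were 67081961 to 79546571 and event totals 554656 to 794567 reads, so small counts are precise only to counting error. Genes and bins needed 10 counts in 2 libraries, exon use 100 counts per gene and library, and events 50 reads in all. edgeR 4.0.16 (TMM, quasi-likelihood F test; diffSpliceDGE for exon use) tested brain over leg with Benjamini-Hochberg adjustment at 0.05, and events also with the gene's CPM (plus 0.1) as an offset. SE is the fold change over the root of F. Fits were tested on simulated data with 50 changes per size. The spread between simulated replicates was set in advance, not estimated from these libraries. Changed genes and bins were drawn from those with a mean of at least 100 counts. Recovery therefore describes that setting only. Of 2-fold changes, 47 were recovered for genes, 3 for bins, 2 for events and 0 for events relative to their gene. Of 4-fold changes these were 50, 38, 27 and 18. Alternatives were DESeq2 1.42.0, limma 3.58.1, total counts, other minimums and leaving out each library; figures used matplotlib 3.10.9. The columns of the exon table show the tissue but no replicate number, so libraries a and b are names only.

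Genes were named if among the 10 largest changes per direction with at least 100 CPM in the higher tissue, or among the 4 most counted of a list; bins if among the 10 largest with at least 200 counts and 10 CPM, or the 3 with the smallest p in 5 lists; events if among the 5 most read or 5 largest changes. Members and lists were chosen with earlier results of these data known. No sequence is printed, since none was used here.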

Additional observations from a re-analysis of the deposited data

How the results depend on the processing

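Counts of calls in both directions kept to within 1.5 times under DESeq2 or limma and without filters on low counts. With total counts in place of TMM, 5811 genes were higher in brain and 1557 in leg, so brain took 78.9% of calls against 51.3%; events higher in brain took 67.3% against 56.3%. Relative to gene expression, that scaling gave 318 events towards brain and 73 towards leg. A minimum of 150 reads left 1836 called events (970 and 866), and 118 relative to the gene (70 and 48), from fewer tested; a minimum of 10 reads left 99 relative calls towards leg. Leaving out 1 library gave 1890 to 2413 called bins (1013 to 1419 towards brain and 782 to 1000 towards leg), 2752 to 3944 called events (1350 to 2351 and 1402 to 1593), and 239 to 517 relative calls (140 to 217 and 99 to 300); the cause was not tested. The lowest event counts came without the first brain library and the highest relative count without the second leg library.

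With total counts 8 named genes changed sign: Ddc (0.50), Eip75B (0.65), Ptp10D (0.055), dac (0.56), f-cup (0.17), Cpr49Ae (0.58), Nsf2 (0.79) and Ca-beta (0.67); all but Ptp10D and f-cup were then called towards brain. Calls were also gained with total counts for lab (3.99), sm (1.09), Liprin-alpha (1.01), ps (1.07) and mbl (1.09), with DESeq2 for Argk (-0.45) and dlg1 (-0.64), and without 1 library for Argk (-0.51), dlg1 (-0.87 and -0.82), MtnC (-1.43 and -1.18), PMCA (-0.58) and mbl (1.01). Libraries a and b of the exon table cannot be tied to the numbers of the event libraries. Calls of single genes lost when 1 library was left out were those of ITP (0.31 to 0.60), bru1 (0.44 and 0.47), EcR (0.53 and 0.63), MtnA (-0.61 and -0.74) and Ptp10D (-0.47 and -0.62). Others lost were those of f-cup (-0.52), nrm (-0.56 and -0.73), Pu (0.77 without leg library b) and pb (2.84 without brain library b). Among bins these were the 5′-most of Ddc (-0.84 to -0.71), one each of br (-4.72 and -4.89) and shakB (-4.56 and -4.90) without a brain library, the 3′-most of bru1 (1.98) and 3 of Mhc without a leg library, such as the one of 104 bases with the larger share in leg (-1.59 and -1.63). Relative calls of the ninaC and unc80 events were lost without either leg library, that of SERCA without the first brain library and that of CG9297 without either brain library.

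A replicate block could be fitted only for events, whose columns carry numbers. The deviations of brain and leg libraries of equal number correlated by 0.03, which cannot decide whether they were prepared together. The block left 4395 called events (2448 and 1947) and gave 715 relative to the gene (365 and 350). No paired analysis was possible because the exon table's columns carry no replicate number for gene expression and exon use. Counting error limits events of few reads: the minimum was 50 reads over 4 libraries. Relative to the gene, the kcc event was called with the block (-1.50) and without the second brain or first leg library (-1.77 and -1.93), that of CG9297 with total reads (0.97) and without the second brain library (0.91), and that of Scp1 without the second brain library (1.53).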

Other observations

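Chemosensory gene families, chosen after values were seen, held members of both tissues. Of 31 odorant binding protein genes tested, 10 were higher in brain and 15 in leg, which became 13 and 12 with total counts. Obp44a had 5853 and 8206 CPM in brain and 87.3 and 136 CPM in leg (5.98 ± 0.33) and was the most counted gene of brain library b. Obp83g had 4.46 and 5.29 CPM in brain and 75.6 and 89.7 CPM in leg (-4.08 ± 0.19). Of 22 ionotropic receptor genes, 8 were higher in leg and 3 in brain. The coreceptor gene Ir25a had 2.82 and 2.66 CPM in brain and 26.4 and 29.4 CPM in leg (-3.35 ± 0.19). Of 13 odorant receptor genes, 6 were higher in brain and 1, Or47a, in leg, with 19.8 and 17.2 CPM in brain and 187 and 206 CPM in leg (-3.41 ± 0.18).

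Cytochrome P450 genes also divided, with 26 of 74 higher in leg and 13 in brain; with total counts these were 20 and 25. Of related members of 1 subfamily, Cyp4g1, an enzyme of cuticular hydrocarbon synthesis in oenocytes, had 1.71 and 0.307 CPM in brain and 103 and 44.1 CPM in leg (-6.19 ± 0.73) and Cyp4g15 523 and 640.4 CPM in brain and 93.2 and 104 CPM in leg (2.56 ± 0.20). Cytoplasmic ribosomal protein genes were higher in leg for 50 of 78 with TMM and for 1 with total counts, where the median of the family went from -0.70 to 0.13. Of cell cycle genes, 15 of 20 were not called. Temporal regulators of neurons were among the ecdysone-linked genes higher in brain, with 98.1 and 59.2 CPM in brain and 7.55 and 2.53 CPM in leg for chinmo (3.96 ± 0.49) and 74.8 and 48.7 CPM in brain and 16.9 and 10.8 CPM in leg for br (2.16 ± 0.28).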
